A study of Homo sapiens with 12 samples.

Results

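The HOX gene clusters were described here from H3K27ac peak lists of HCT116 cells. HCT116 is an established human colorectal cancer line in which mitogen-activated protein kinase (MAPK) signaling is active. H3K27ac is the acetylation of histone H3 at lysine 27, which marks active promoters and enhancers. It was mapped by CUT&RUN, in which a nuclease tethered by an antibody releases the marked chromatin for sequencing. The members were the protein-coding genes of the GENCODE annotation whose symbol is HOXA, HOXB, HOXC or HOXD with a number, which gave 39 of 20046 protein-coding genes. The HOXA cluster holds 11 of them, HOXB 10, HOXC 9 and HOXD 9. Of 12 libraries in the labels, the 6 made with the H3K27ac antibody were analysed. They were 2 replicates each of untreated cells, of cells treated with cobimetinib at 1 µM for 24 h, and of cells treated with TNFα at 100 ng/ml for 24 h. Cobimetinib inhibits the MAPK kinase MEK, and TNFα is an inflammatory cytokine, so the comparisons ask how the mark responds when signaling is inhibited or stimulated. All libraries came from the same cell line, and no label ties a replicate to a separate culture, so p-values measure only the spread between these libraries. The IgG control libraries are not analysed here, and these values stand without a control background.

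HOX genes encode homeodomain transcription factors that specify position along the body axis. Within a cluster all genes are transcribed in the same direction, and their order matches the order in which they act. Paralog groups 1 to 3 (anterior) lie at the 3′ end and act toward the head, groups 4 to 8 (central) follow, and groups 9 to 13 (posterior) lie at the 5′ end and act toward the tail. In the gut, CDX transcription factors activate HOX genes, and posterior genes pattern the hindgut, from which the distal colon arises. Silent HOX chromatin is typically held by Polycomb repressors, and active HOX chromatin is maintained by Trithorax/MLL complexes and carries H3K27ac.

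Each peak was placed by its rank within its own list, where rank 1 is the peak with the highest score and tied scores share the middle rank. A promoter peak is a peak within 1 kb of any annotated transcript start of the gene, and the gene takes the rank of its best one. A gene without one took a rank of the list length plus 1. A lower rank is therefore a stronger signal relative to the other peaks of the library. The lists held between 69813 and 124771 peaks, and read depth is unknown from them. Untreated replicate 2 stood apart, with the longest list and a median peak width of 190 bp against 278 to 365 bp in the other 5. Of 7 epithelial markers, 6 had a promoter peak in all 6 libraries, KRT8 at ranks from 320 to 2276.5, KRT19 at 15620.5 to 91529 and CDH1 at 9959 to 117375, whereas VIL1 had none. Of 9 markers of immune, endothelial, fibroblast, glial and liver cells, 2 had one in all 6 (COL1A1 at ranks from 2339.5 to 9958.5, and COL3A1), 6 in 1 to 5, and CDH5 in none.

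Sequences of the strongest HOX elements, and of promoters without a peak, are given for comparison. Of the 39 genes, 20 had a promoter sequence in the RefSeq table used (GRCh38.p14, 250 bases before to 50 after the start, 27 sequences since some genes have several starts). The genes shown were the best-ranked member of the HOXA, HOXC and HOXD clusters and HOXA2, which had no promoter peak in any library. Capitals mark words searched on both strands: the GC box GGGCGG, the TATA box TATAAA, the CDX word TTTATG, the HOX-PBX word TGATNNAT and the AP1 words TGACTCA and TGAGTCA. Read on the other strand, the CDX word differs from the TATA box in its first letter only. The HOXA9 promoter (chr7:27165488-27165787, minus strand) overlapped a peak in all 6 libraries. The HOXC4 promoter (chr12:54016638-54016937, plus strand) overlapped a peak in 4. Neither the HOXD3 promoter at its downstream start (chr2:176157057-176157356, plus strand) nor the HOXA2 promoter (chr7:27102634-27102933, minus strand) overlapped one in any library.
HOXA9: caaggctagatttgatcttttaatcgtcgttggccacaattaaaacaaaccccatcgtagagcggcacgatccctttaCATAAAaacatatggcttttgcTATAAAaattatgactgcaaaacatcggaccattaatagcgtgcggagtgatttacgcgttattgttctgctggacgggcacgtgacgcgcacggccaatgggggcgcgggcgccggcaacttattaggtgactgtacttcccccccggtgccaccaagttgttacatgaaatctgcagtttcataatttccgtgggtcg
HOXC4: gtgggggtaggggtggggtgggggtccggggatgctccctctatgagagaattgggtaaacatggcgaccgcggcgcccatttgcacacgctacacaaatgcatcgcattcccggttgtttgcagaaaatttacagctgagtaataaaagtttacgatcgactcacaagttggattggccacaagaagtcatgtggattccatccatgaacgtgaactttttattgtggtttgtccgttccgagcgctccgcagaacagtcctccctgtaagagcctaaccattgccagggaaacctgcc
HOXD3: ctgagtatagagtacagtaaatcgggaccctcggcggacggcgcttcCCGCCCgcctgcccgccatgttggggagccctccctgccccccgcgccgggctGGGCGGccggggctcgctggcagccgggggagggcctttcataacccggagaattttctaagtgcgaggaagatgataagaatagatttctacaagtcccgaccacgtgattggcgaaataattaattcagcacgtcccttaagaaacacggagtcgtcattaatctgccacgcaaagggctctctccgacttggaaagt
HOXA2: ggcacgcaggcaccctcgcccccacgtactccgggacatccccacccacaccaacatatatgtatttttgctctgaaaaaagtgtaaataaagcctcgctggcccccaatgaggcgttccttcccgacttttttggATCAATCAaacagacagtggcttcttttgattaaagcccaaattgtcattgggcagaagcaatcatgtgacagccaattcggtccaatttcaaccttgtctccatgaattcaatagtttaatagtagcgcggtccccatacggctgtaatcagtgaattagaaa

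The next sequences are cores of regions held by all 6 libraries, read from the plus strand of hg38. Regions with a HOXB start within 1 kb were left out, so their cores were not scored. Each is the stretch that a peak of every list covered, without annotated UTR and limited to its middle 300 bases. The first HOXC core (chr12:54017890-54018189) lies in the strongest region of the 4 clusters, downstream of a HOXC4 start. The other HOXC core (chr12:53995583-53995882) lies at neighboring starts of HOXC6 and HOXC9. The HOXB core (chr17:48646213-48646512) lies between HOXB9 and HOXB13, at the noncoding genes LINC02086 and LINC03057. The HOXD core (chr2:176097594-176097643, 50 bases) lies between HOXD13 and HOXD12.
HOXC core near HOXC4: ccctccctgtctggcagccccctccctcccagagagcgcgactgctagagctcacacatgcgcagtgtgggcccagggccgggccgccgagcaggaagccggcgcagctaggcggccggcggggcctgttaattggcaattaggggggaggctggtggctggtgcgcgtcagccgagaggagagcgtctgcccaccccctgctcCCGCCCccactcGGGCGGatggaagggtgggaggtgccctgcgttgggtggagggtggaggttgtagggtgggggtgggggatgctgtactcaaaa
HOXC core at HOXC6 and HOXC9: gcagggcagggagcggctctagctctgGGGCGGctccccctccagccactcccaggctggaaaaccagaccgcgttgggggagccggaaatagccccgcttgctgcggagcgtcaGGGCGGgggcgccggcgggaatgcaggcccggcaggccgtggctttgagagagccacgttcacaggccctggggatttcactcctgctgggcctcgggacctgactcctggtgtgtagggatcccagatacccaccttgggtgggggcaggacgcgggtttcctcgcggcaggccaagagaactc
HOXB intergenic core: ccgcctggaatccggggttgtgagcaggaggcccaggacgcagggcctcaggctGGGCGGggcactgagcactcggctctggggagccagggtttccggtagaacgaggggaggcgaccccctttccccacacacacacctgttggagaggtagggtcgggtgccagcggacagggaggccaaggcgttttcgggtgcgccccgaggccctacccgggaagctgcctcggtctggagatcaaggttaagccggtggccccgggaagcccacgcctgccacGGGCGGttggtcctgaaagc
HOXD intergenic core: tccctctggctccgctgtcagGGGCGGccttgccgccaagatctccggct

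The 4 cores printed above had a GC content of 68.7% to 70% and held 1 or 2 GC boxes each, against a GC content of 48% in the HOXA9 promoter and 46.3% in the HOXA2 promoter. Cores of HOXA regions held by all 6 libraries had less. That at the HOXA9 exon (chr7:27165639-27165938) had 45.3% GC with 0 GC boxes, 2 TATA boxes and 2 CDX words, and that at HOXA3 and HOXA-AS2 (chr7:27115226-27115525) had 52.7% GC with 1 GC box and 2 CDX words. The GC box was present in 45% of all 35116 promoter sequences and in 13 of the 27 HOX sequences. None of the 27 HOX sequences held an AP1 word, which 4.95% of all promoters held. The TATA box was found in 5 of 27 and in 11.5% of all promoters, the CDX word in 3 of 27 and in 10.6%, and the HOX-PBX word in 3 of 27 and in 7.4%. HOXA9 carried a TATA box and a CDX word, and HOXA2 carried a HOX-PBX word. These matches describe letters in fixed windows only.

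Promoter peaks of HOX genes were listed about as often as those of other genes and ranked farther from the top. In all 6 libraries, 17 of 39 HOX genes (43.6%) had a promoter peak, against 51.9% of all protein-coding genes. None of the libraries gave a promoter peak for 9 HOX genes (23.1%, against 25.5% of all genes), and the other 13 had one in 1 to 5 libraries. Without untreated replicate 2, 21 of the 39 had one in all of the remaining libraries. By library, the share of HOX genes with a promoter peak ran from 51.3% to 66.7%, and that of all genes from 58.8% to 65.4%. Among genes with a promoter peak, the median rank of the HOX genes lay between 13085 and 31541 in the 6 libraries, and that of all genes between 10331.5 and 13968. In each library the HOX median was thus farther from the top. The 20000 highest peaks, the set that the study used to define its regions, reached 23.1% to 48.7% of HOX promoters and 32.5% to 51.6% of all promoters. Of the HOX genes, 7 were reached in all 6 libraries, namely HOXA9, HOXB3, HOXB6, HOXB9, HOXC4, HOXC6 and HOXC9.

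**Figure D1:**
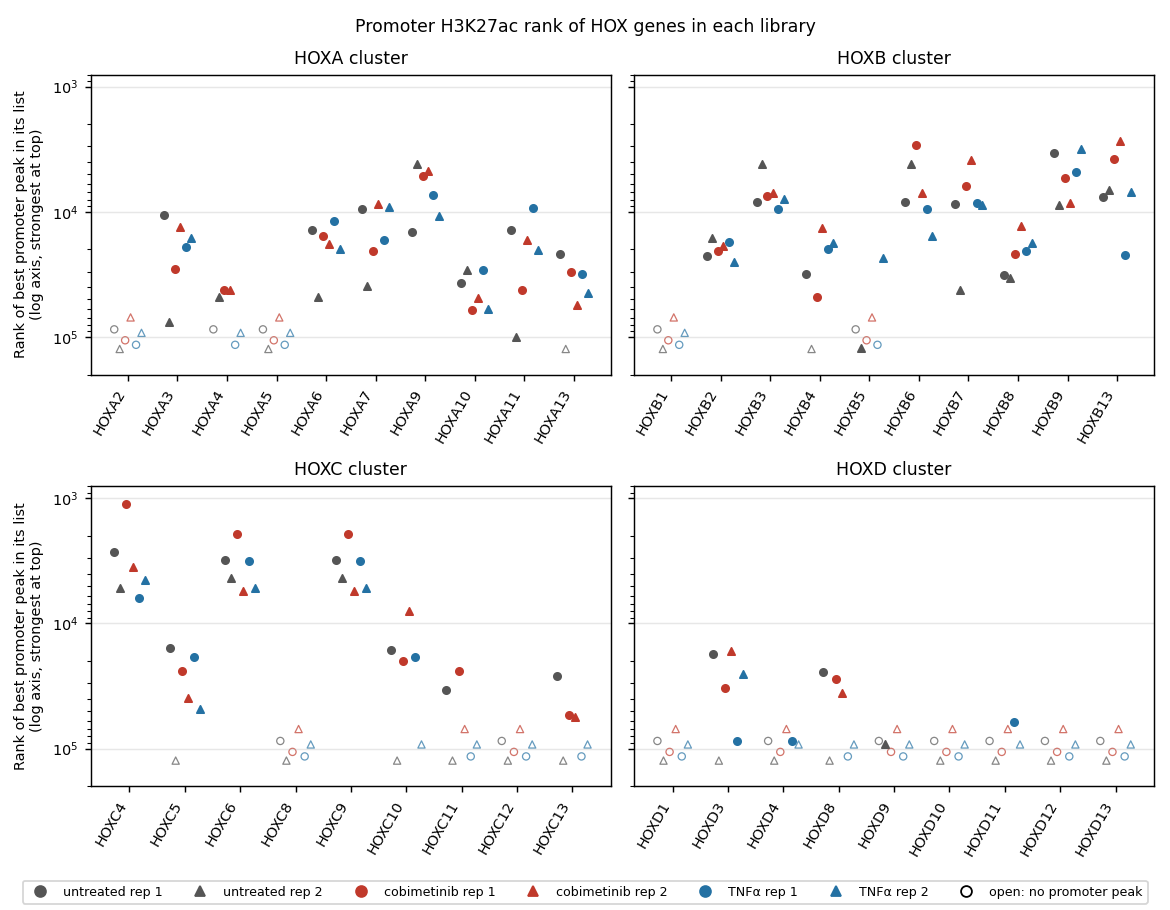
Rank of the best promoter peak of HOX genes (log axis, strongest at the top) in the 6 libraries, by cluster and paralog number; open symbols stand at the list length plus 1 where a library had no promoter peak. HOXC4, HOXC6 and HOXC9 lie nearest the top, and 4 of the 9 HOXD genes have only open symbols.

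Paralogs of group 9, the first of the posterior genes, were marked most uniformly among the groups with 4 members. HOXA9, HOXB9 and HOXC9 had a promoter peak in all 6 libraries and HOXD9 in 1. In group 6 all 3 members (HOXA6, HOXB6 and HOXC6) and in group 7 both members (HOXA7 and HOXB7) had one in all 6. Group 13, the most posterior, had HOXB13 in all 6, HOXA13 in 5, HOXC13 in 3 and HOXD13 in none. Groups 5 and 12 had no member in all 6, and in group 12 both HOXC12 and HOXD12 were without a promoter peak in every library. The remaining genes without one were HOXA2, HOXA5, HOXB1, HOXC8, HOXD1, HOXD10 and HOXD13.

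In the HOXC cluster the signal was concentrated at a few strong elements. HOXC4, a central gene, had promoter ranks of 2712 and 5234.5 in the untreated libraries, 1106.5 and 3521 with cobimetinib, and 6291 and 4512 with TNFα. Its geometric mean rank of 3409 was the nearest to the top of the 39 genes, both cobimetinib values lay nearer the top than both TNFα values, and the untreated values overlapped both. HOXC6 and HOXC9 took their rank from the same peak in every library, at 3137.5 and 4321.5 untreated, 1935 and 5545.5 with cobimetinib, and 3187 and 5183 with TNFα, so the 3 groups overlapped. HOXC8 and HOXC12 stood at the other end, with no promoter peak. HOXC5 had one in 5 libraries, HOXC10 in 4, HOXC13 in 3 and HOXC11 in 2.

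HOXB, with 7 of 10 genes marked in all 6 libraries, carried strong peaks at some central and posterior members. HOXB3, an anterior gene, had a geometric mean rank of 7175, from a peak it shared with HOXB6 in 4 libraries. In cobimetinib replicate 1 and TNFα replicate 2 its rank came from a peak near MIR10A instead. The anterior gene HOXB2 had 19863, and the central genes HOXB8, HOXB4 and HOXB5 had 21995, 30989 and 77323. HOXB9 had ranks of 3411.5 and 8823 untreated, 5389 and 8577 with cobimetinib, and 4794.5 and 3161.5 with TNFα, so both TNFα values lay nearer the top than both cobimetinib values. HOXB13, a posterior gene expressed in the prostate and distal colon, had 7635 and 6729.5 untreated, 3780.5 and 2700.5 with cobimetinib, and 22336.5 and 6899.5 with TNFα. Its cobimetinib values were nearest the top, without overlap with the other 2 groups. HOXB6 had 8392.5 and 4125.5 untreated, 2905.5 and 7041 with cobimetinib, and 9413 and 15725.5 with TNFα, where the TNFα values were the farthest from the top. HOXB1, the most anterior gene of the cluster, had no promoter peak, HOXB4 had one in 5 libraries and HOXB5 in 2.

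The HOXA genes ranked farther from the top than those of HOXB, with HOXA9 as the strongest of them. HOXA9, a posterior gene known for its role in blood progenitors and leukemia, had ranks of 14392.5 and 4125.5 untreated, 5170.5 and 4701 with cobimetinib, and 7303 and 10894 with TNFα. Its cobimetinib values lay nearer the top than those with TNFα, and the untreated values spanned both groups. However, the values came from different peaks. Both cobimetinib values and that of TNFα replicate 2 came from a peak in a HOXA9 intron near MIR196B. The others came from a peak at the HOXA9 exon. At that exon region the ranks were 9656.5 and 6350 with cobimetinib and 7303 and 17215 with TNFα, which overlapped. HOXA7, a central gene, had 9530.5 and 39474.5, 20630.5 and 8705.5, and 16693.5 and 9157 in the same order, and all 3 groups overlapped. HOXA6 had 13900.5 and 47866, 15529 and 18249, and 11754 and 19779, again with overlap. In each of these last 2 genes the weakest value was that of untreated replicate 2. HOXA2 and HOXA5 had no promoter peak, HOXA4 had one in 3 libraries and HOXA13 in 5.

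HOXD was the least marked cluster. None of its 9 genes had a promoter peak in all 6 libraries, and HOXD1, HOXD10, HOXD12 and HOXD13 had none in any. HOXD3, its best-ranked gene, had 17588.5 in untreated replicate 1, none in replicate 2, 32909 and 16497.5 with cobimetinib, and 86479 and 25159 with TNFα. HOXD8 had 24358 in untreated replicate 1 and 27934.5 and 36157 with cobimetinib, and no promoter peak in the other 3 libraries. HOXD11, which came next, had a single peak at rank 61437.5 in TNFα replicate 1, and HOXD4 and HOXD9 likewise had 1 each.

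The clusters differed in rank beyond the spread between libraries. Genes without a promoter peak entered at the list length plus 1, which was the case for 43 of the 54 HOXD values (9 genes in 6 libraries), 22 of 54 in HOXC, 16 of 66 in HOXA and 11 of 60 in HOXB. Per library, 1 to 3 of the 9 HOXD genes had a promoter peak, 3 to 7 of 9 in HOXC, 8 to 9 of 11 in HOXA and 8 to 9 of 10 in HOXB. The geometric mean rank over a cluster's genes, averaged over the 6 libraries, was 16631 for HOXB, 23164 for HOXC, 30849 for HOXA and 80620 for HOXD. HOXD was farther from the top than each other cluster in 6 of 6 libraries, by 4.85-fold against HOXB (HOXB minus HOXD -2.28 ± 0.23 on the log2 scale, SD, n = 6), 3.48-fold against HOXC (SD 0.45) and 2.61-fold against HOXA (SD 0.24). HOXA was farther from the top than HOXB in 6 of 6 libraries, by 1.85-fold (0.89 ± 0.29 on the log2 scale). Each of these 4 differences had an adjusted p = 0.0469 (exact sign-flip permutation over libraries, two-sided, Benjamini-Hochberg over 9 pairs; the smallest p that 6 libraries allow is 0.0312 before adjustment). Since most HOXD values are list lengths, the size of its folds depends on the rank given to genes without a peak. HOXC did not differ from HOXA (HOXA minus HOXC 0.41 ± 0.44, adjusted p = 0.0804, same exact test) or from HOXB (HOXB minus HOXC -0.48 ± 0.54, adjusted p = 0.141, same exact test) beyond the spread between libraries. With the median over genes in place of the mean, none of the 9 pairs passed, and the adjusted p of the 4 pairs above was 0.0563, 0.141, 0.0563 and 0.0563 in the order given (exact permutation).

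Position class, pooled over clusters, gave smaller differences, which depended on the starts counted. The classes mix the clusters unevenly. HOXD holds 2 of the 8 anterior, 2 of the 15 central and 5 of the 16 posterior genes, and HOXC holds no anterior gene. Position was not tested apart from cluster. The peak shared by HOXC6 and HOXC9 entered both the central and the posterior class in every library. That shared by HOXB3 and HOXB6 entered the anterior and the central class in both untreated libraries, cobimetinib replicate 2 and TNFα replicate 1. Central genes were nearer the top than anterior genes by 1.37-fold (0.45 ± 0.24 on the log2 scale) and than posterior genes by 1.34-fold (central minus posterior -0.42 ± 0.17), each in 6 of 6 libraries with adjusted p = 0.0469 (exact sign-flip permutation). Anterior and posterior genes differed by 0.03 ± 0.21 (adjusted p = 0.719, same exact test). With promoters taken within 2 kb, anterior minus central was 0.36 and no longer passed (adjusted p = 0.0703, exact permutation). Counting only the start of the canonical transcript, posterior genes were instead nearer the top than central genes by 0.24 on the log2 scale, and nearer than anterior genes by 0.83 (adjusted p = 0.0402 for both, exact permutation). Posterior genes had a canonical promoter peak in all 6 libraries in 5 of 16 cases, central genes in 3 of 15 and anterior genes in 1 of 8.

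The start used decided which HOX genes counted as marked. By the canonical start alone, 9 genes had a peak in all 6 libraries, among them HOXA9, HOXB9, HOXB13 and HOXC9, and 12 had none in any. The 8 genes that dropped out were HOXA3, HOXA6, HOXA10, HOXB2, HOXB3, HOXB8, HOXC4 and HOXC6. Annotated starts of HOXB3 span 50990 bp, those of HOXC4 36904 bp and those of HOXC6 37816 bp. At the canonical start HOXB3, HOXC4 and HOXA6 had no peak in any library, and HOXC6 had 1 at rank 83388. For HOXC9 the canonical start ranked between 6350 and 120423.5, farther from the top in every library than its start beside HOXC6. With canonical starts the geometric mean rank was 27325 for HOXB, 43731 for HOXA, 59056 for HOXC and 89489 for HOXD, so HOXA passed HOXC. HOXC then differed from HOXB (HOXB minus HOXC -1.11 on the log2 scale, adjusted p = 0.0402), while the difference from HOXD no longer passed (HOXC minus HOXD -0.60, adjusted p = 0.0625, exact permutation for both).

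**Figure D2:**
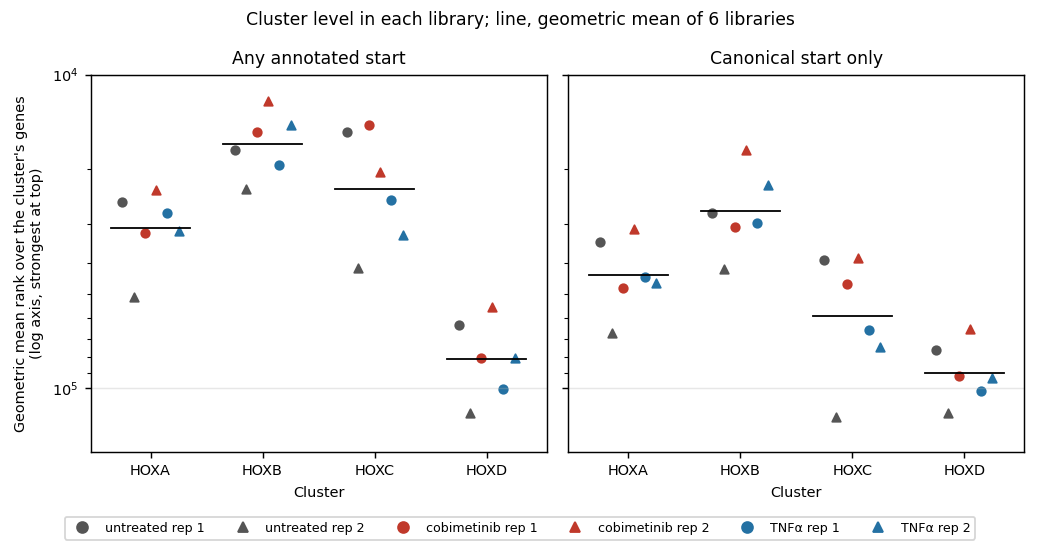
Geometric mean promoter rank over the genes of each cluster (log axis, strongest at the top) in the 6 libraries, from any annotated start (left) and from the canonical start only (right); lines are geometric means over libraries. The HOXD line lies lowest in both panels, although HOXC was the lower of these clusters in untreated replicate 2 with canonical starts, and the HOXC line falls from 23164 to 59056 when only canonical starts are counted.

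Beyond the promoters, the windows from the outermost genes of each cluster plus 20 kb on both sides were compared by the share of their bases under peaks. The HOXA window (chr7:27072993-27220091) had 8.76% ± 2.38 covered (SD, n = 6), the HOXB window (chr17:48508526-48748750) 7.32% ± 1.65, the HOXC window (chr12:53918831-54076030) 3.99% ± 1.26 and the HOXD window (chr2:176072721-176210907) 1.53% ± 0.85. Across the genome the same lists covered 1.17% to 1.75%. HOXA stood at 3.74 to 7.62 times the genome share of the same library, HOXB at 3.67 to 6.11 times and HOXC at 1.58 to 3.43 times. These 3 windows were above it in all 6 libraries, whereas HOXD was above it in 3 of 6. In each window untreated replicate 2 had the lowest share, 4.37%, 4.29%, 1.85% and 0.514% from HOXA to HOXD. Between conditions the exact permutation p ran from 0.333 to 1, and 0.333 is the smallest that 2 libraries against 2 allow.

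**Figure D3:**
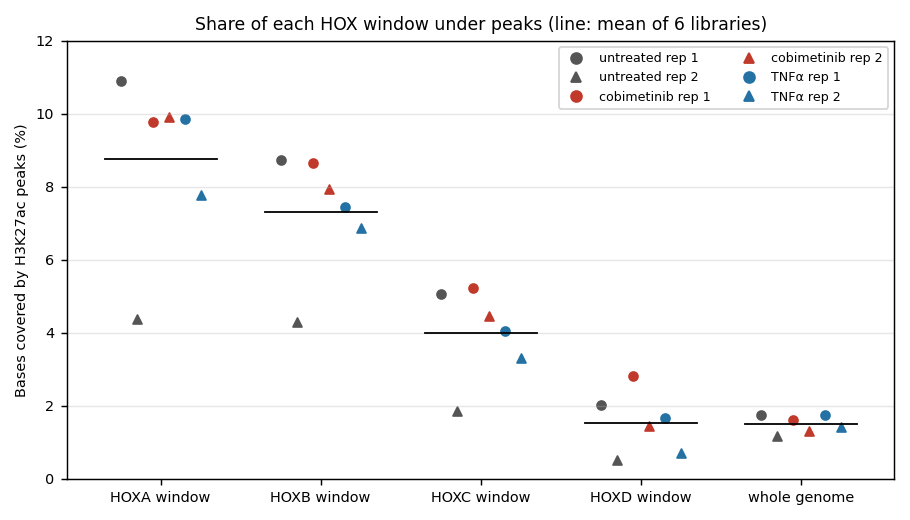
Share of bases under H3K27ac peaks in each HOX window and in the whole genome (y axis, %), one point per library; lines are means of 6 libraries. The HOXA, HOXB and HOXC windows lie above the genome in all 6 libraries, and untreated replicate 2 is the lowest point of each window.

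Merged across libraries, the 20000 highest peaks of each list gave 39 regions in the HOX windows among 38598 in the genome. HOXA held 10, HOXB 17, HOXC 8 and HOXD 4. All 6 libraries held 8 of the 39 (20.5%, the same share as over all regions), and a single library held 10 (25.6%, against 40.6% of all regions). Their median width was 1107 bp, against 937 bp. A HOX start lay within 1 kb of 24 regions, and of the 39, 21 overlapped an exon, 8 an intron only and 10 no gene of the protein-coding set.

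The strongest regions were few in each cluster. In HOXC they were the region downstream of the HOXC4 start (chr12:54017143-54018890, geometric mean rank 3409), that at the HOXC6 and HOXC9 start (chr12:53994785-53996608, 3660), and that at the canonical HOXC9 start (chr12:53999571-54000853, 21980). In HOXB a region outside protein-coding genes led (chr17:48645496-48647942), at ranks of 3339 and 5234.5 untreated, 1728.5 and 9115.5 with cobimetinib, and 4746.5 and 3273 with TNFα, and it lay 11924 bp from the nearest HOX start, one of HOXB7. It was followed by the HOXB9 exon region (chr17:48625142-48627508, 5256) and the HOXB13 exon region (chr17:48728088-48729242, 6576). In HOXA the leading regions were at the HOXA9 exon (chr7:27165372-27167150, 8779), in a HOXA9 intron near MIR196B (chr7:27168097-27169225, 11048) and at an exon of HOXA3 and the antisense gene HOXA-AS2 (chr7:27113128-27115841, 14567). In HOXD the leading region was intergenic (chr2:176097085-176098014), 1781 bp from HOXD12, with ranks from 10686.5 to 18596.5 over the 6 libraries, and it was the only HOXD region that all 6 held. The next were an exon of HOXD3 with HOXD-AS2 (chr2:176136597-176137433) and an intergenic one beyond HOXD1 (chr2:176200922-176201349), the latter at rank 1408 in cobimetinib replicate 1 and present in 1 other list only, that of TNFα replicate 2 at 39485.5.

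**Figure D4:**
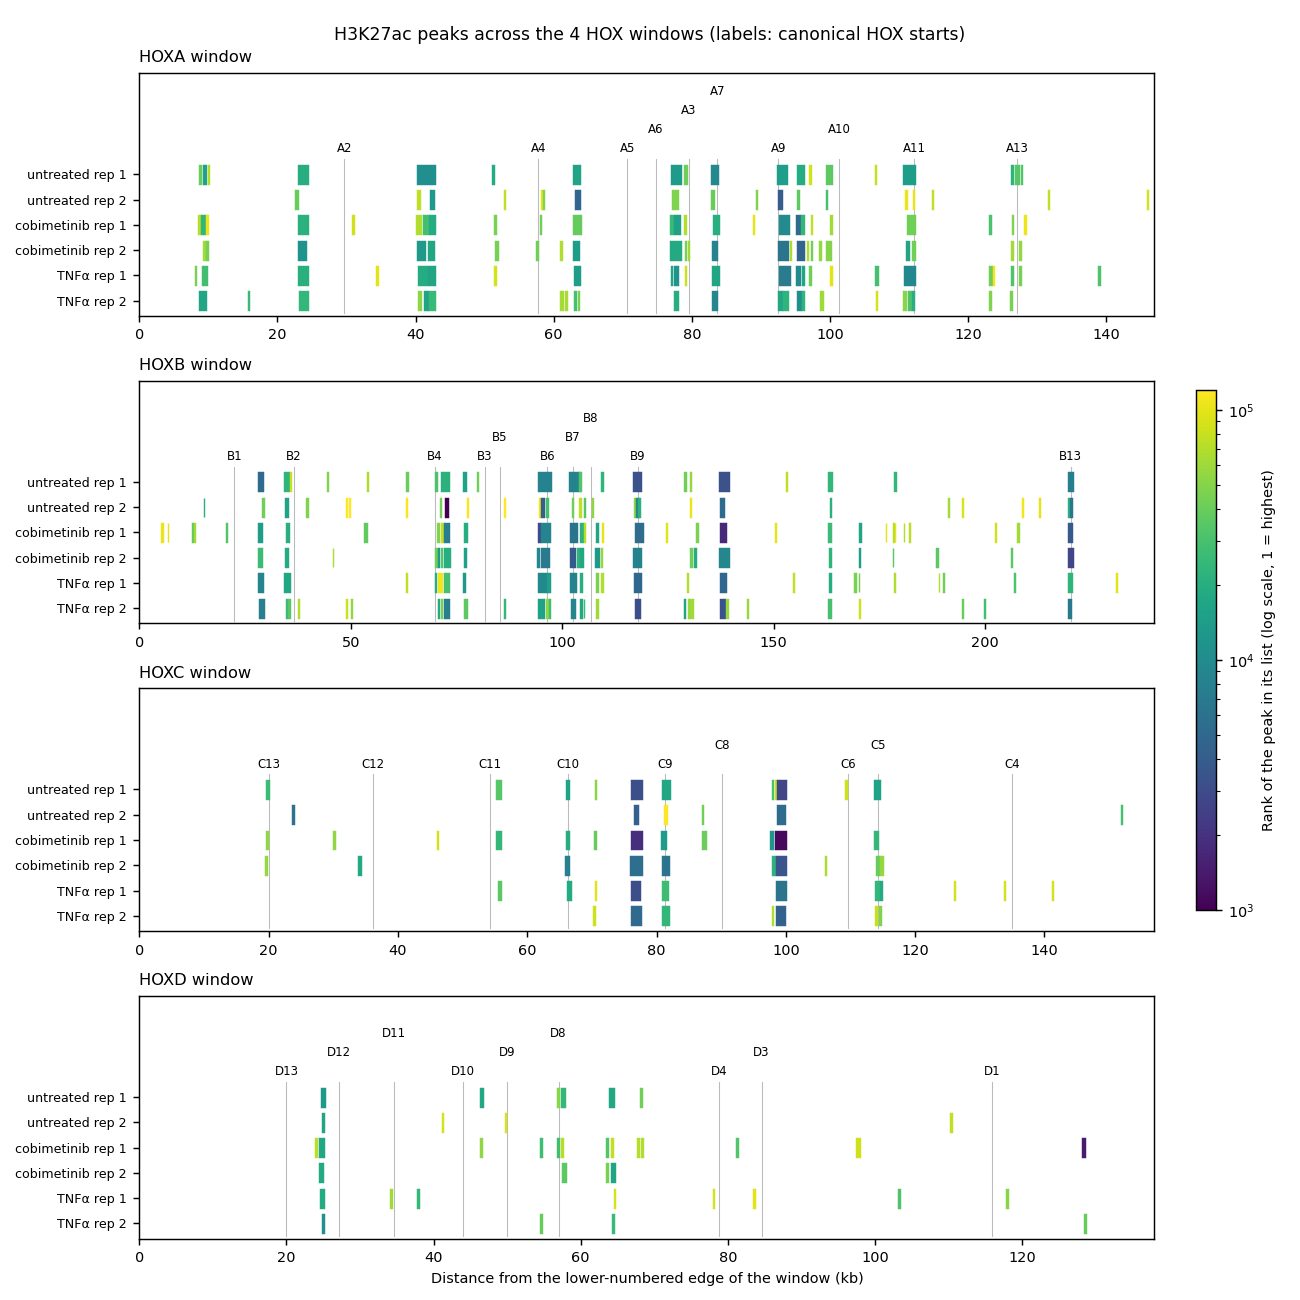
H3K27ac peaks of the 6 libraries across the 4 HOX windows (x axis, distance in kb from one edge); color is the rank of the peak in its list on a log scale, and vertical lines are canonical starts. The 2 strong HOXC elements appear in every library away from the canonical starts of HOXC4 and HOXC6, and the HOXD window has few peaks.

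Noncoding genes shared these elements. Of 18 noncoding genes listed for the windows, 9 had a promoter peak in all 6 libraries and 3 in none. HOXB-AS3 took ranks from 2905.5 to 15725.5, the same as HOXB6 in each library, and HOXC-AS2 took those of HOXC9. HOTTIP, a noncoding RNA at the posterior end of HOXA, had a promoter peak in 5 libraries, and HOTAIR, within the HOXC cluster, in 3. Since peaks carry no strand, a gene and its antisense partner cannot be told apart here.

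MicroRNAs encoded within HOX clusters repress HOX transcripts among their targets. MIR10A, between HOXB4 and HOXB5, had a peak over its hairpin (chr17:48579838-48579947, minus strand) in all 6 libraries at ranks from 21224.5 to 110125. Its best rank within 1 kb was 953 in untreated replicate 2 and 7467.5 to 29053 in the other 5 libraries. MIR196B (chr7:27169480-27169563, minus strand), beside HOXA9, had a peak within 1 kb in all 6, at 19124.5 and 36797.5 untreated, 5170.5 and 4701 with cobimetinib, and 9756.5 and 10894 with TNFα. None of the libraries had a peak over its hairpin. In both cobimetinib libraries and TNFα replicate 2, the peak near MIR196B was the one that gave HOXA9 its rank. MIR615, in HOXC5, had a peak within 1 kb in 5 libraries, MIR196A1 and MIR10B in 1 each, and MIR196A2 in none. The mature forms are printed from RefSeq (GRCh38.p14) with the seed, bases 2 to 8, in capitals, to show that miR-196a-5p and miR-196b-5p share the seed AGGUAGU although only the MIR196B locus had a peak in every library.
miR-10a-5p: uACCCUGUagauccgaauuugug
miR-196a-5p: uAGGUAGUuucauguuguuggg
miR-196b-5p: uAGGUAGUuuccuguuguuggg
miR-615-3p: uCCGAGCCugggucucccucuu

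Between conditions no HOX gene passed the test. Of the 39 genes, 27 had a promoter peak in at least 2 libraries and entered the fit with 13555 genes in all (limma on log2 rank, Benjamini-Hochberg over all genes tested). The test called 0 of 27 HOX genes and 0% of all genes in each of the 3 contrasts. With only the 4 TNFα and cobimetinib libraries in the fit, 69 of 13555 genes were called between these treatments, and 0 of 27 HOX genes. At an unadjusted p under 0.05, 976 genes passed for cobimetinib against untreated, 441 for TNFα against untreated and 732 for TNFα against cobimetinib, of which 1 (HOXB7), 0 and 1 (HOXB13) were HOX genes. The genes whose differences are given in the next 3 paragraphs had SEs of 0.82 to 1.05 on the log2 scale. A missed threshold therefore does not show that their ranks were alike. The spread was wide, with a median difference between replicates of the 27 genes of 1.78 on the log2 scale in untreated cells, 0.74 with cobimetinib and 0.58 with TNFα, against 1.39, 0.62 and 0.59 over all genes tested.

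Under cobimetinib the median HOX difference from untreated was -0.54 on the log2 scale, beside -0.36 over all genes tested. With genes ranked among the genes tested instead of within the peak list, these medians were 0.00 and 0.03. HOXB7, a central gene, ranked at 8589.5 and 42366 untreated and at 6260.5 and 3832 with cobimetinib, a difference of -1.96 (SE 0.90, limma adjusted p = 0.687). Both cobimetinib values were nearer the top than both untreated ones. HOXB13 differed by -1.17 (SE 0.82, adjusted p = 0.742) with the values given above. HOXB8, a central gene, had 31859.5 and 34024.5 untreated and 21872.5 and 13085 with cobimetinib, a difference of -0.96 (SE 0.85, adjusted p = 0.78). The value 13085 came from a peak 987 bp from a HOXB8 start. That peak also makes a region, given below, held only with cobimetinib against untreated. The groups did not overlap, with cobimetinib nearer the top, for 4 of 27 HOX genes (HOXA4, HOXB7, HOXB8 and HOXB13), beside 22.2% of all genes tested. They did not overlap in the other direction for HOXA10 alone, beside 11.8%. Without untreated replicate 1, 4 HOX genes were called nearer the top with cobimetinib (HOXB4, HOXB7, HOXC10 and HOXD3), beside 24.0% of all genes in either direction. The untreated group is then untreated replicate 2 alone, the library that stood apart, and is assumed to vary like the other groups. HOXB4, HOXC10 and HOXD3 had no promoter peak in that library, so their untreated value is its list length plus 1.

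With TNFα the median HOX difference from untreated was -0.01, beside -0.13 over all genes tested. By rank among the genes tested, these medians were 0.01 and 0.02. HOXA11, a posterior gene, ranked at 14067 and 100417 untreated and at 9302 and 20310 with TNFα, a difference of -1.45 (SE 1.05, limma adjusted p = 0.969). The 2 groups overlapped, and the weakest value was again that of untreated replicate 2. HOXB7 stood at 8504 and 8745 with TNFα (-1.15, SE 0.90, adjusted p = 0.969), and overlapped the untreated values given above. HOXB6 differed in the opposite direction (1.05, SE 0.83, adjusted p = 0.969), with both TNFα values farther from the top than both untreated ones. HOXB4 and HOXB8 were nearer the top with TNFα without overlap (2 of 27, beside 12.5% of all genes), and HOXA4 and HOXB6 farther (2 of 27, beside 15.1%). HOXA4 had no listed peak in untreated replicate 1 or with TNFα, so its place there is set by list lengths. Without untreated replicate 1, 4 HOX genes were called nearer the top with TNFα (HOXA3, HOXA11, HOXB4 and HOXB7), beside 17.0% of all genes in either direction. HOXB4 had no promoter peak in untreated replicate 2, so its untreated value in that fit is the list length plus 1. The cobimetinib and TNFα comparisons share the untreated libraries.

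TNFα and cobimetinib, set against each other, gave a median HOX difference of 0.31 on the log2 scale and 0.24 over all genes. By rank among the genes tested, these medians were 0.05 and 0.01. HOXB13 was farther from the top with TNFα by 1.96 (SE 0.82, limma adjusted p = 0.895), HOXC4 by 1.43 (SE 0.82, adjusted p = 0.992) and HOXB6 by 1.43 (SE 0.83, adjusted p = 0.992). In each of these 3 genes both TNFα values lay farther from the top than both cobimetinib values. The same held for HOXA4, HOXA9, HOXB3, HOXB7, HOXC11, HOXC13 and HOXD8, which made 10 of 27, beside 29.3% of all genes tested. HOXC11 had no listed peak in cobimetinib replicate 2 or with TNFα, so its place is set by list lengths, which left 9 genes. HOXA4, HOXC13 and HOXD8 had listed peaks with cobimetinib and none with TNFα. HOXA9 and HOXB3 took their values from different peaks in different libraries. HOXB9 alone was nearer the top with TNFα without overlap, beside 14.7%.

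Regions held in only 1 of the groups compared were few with all libraries, and their number depended on single libraries. Both cobimetinib libraries and neither untreated library held 2 of the 39 HOX regions, beside 3.92% of all regions. These were a region in a HOXB7 intron, 987 bp from a HOXB8 start (chr17:48616279-48617215), at ranks 16988 and 13085 with cobimetinib, 45994 and 60090 with TNFα and without a peak in untreated cells, and an intergenic region of the HOXB window (chr17:48678606-48679089), at 16988 and 14477 with cobimetinib, 44927.5 and 83913 with TNFα and likewise without an untreated peak. Neither TNFα library held these regions among its 20000 highest peaks, nor did they hold the region at the canonical HOXC9 start, which ranked 17336 and 120423.5 untreated, 13564.5 and 6350 with cobimetinib, and 27025.5 and 23205 with TNFα. Regions held by both cobimetinib and neither TNFα library thus made 3 of 39 beside 4.39% of all regions. No HOX region was held only by untreated libraries against cobimetinib (1.60% of all regions) or TNFα (1.00%), or only by TNFα libraries against untreated (3.56%) or cobimetinib (5.41%). Without untreated replicate 1, the cobimetinib-only regions against untreated were 8 and the TNFα-only ones 5, and without untreated replicate 2 the untreated-only regions were 4 against cobimetinib and 5 against TNFα. Without cobimetinib replicate 1 or 2 the cobimetinib-only regions were 6 or 4 against untreated and 7 or 5 against TNFα. Without TNFα replicate 1 or 2 the TNFα-only regions were 3 or 2 against untreated and 2 or 3 against cobimetinib, and the cobimetinib-only ones against TNFα were 5 without TNFα replicate 1. Presence in 2 libraries against 2 allows no test of a single region.

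Genes that regulate or adjoin the clusters were read in the same way. Of 6 CDX and ParaHox genes, relatives of the HOX genes, CDX2 alone had a promoter peak in all 6 libraries, at 22364 and 16075.5 untreated, 16403 and 14477 with cobimetinib, and 25101.5 and 17835 with TNFα. PDX1 had one in 5, and the other 4 had none. Of 9 HOX cofactors, which bind DNA together with HOX proteins, 4 had one in all 6, among them PKNOX1. Polycomb genes had one in all 6 in 10 of 13 cases and Trithorax/MLL genes in 10 of 11. Of 14 genes that adjoin or lie inside the clusters, 7 had one in all 6 and 4 in none, namely EVX1 and EVX2, the homeobox genes at the posterior ends of HOXA and HOXD, and PRAC1 and PRAC2 beside HOXB13. MTX2, beyond the anterior end of HOXD, ranked between 151 and 4125.5.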

How the data were processed

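Peaks were listed by the authors for 6 H3K27ac CUT&RUN libraries of HCT116 cells (2 per condition). The study's methods give adapter trimming by BBDuk, alignment by BWA 0.7.15 (hg38) and a mapping-quality filter. Peaks were called with MACS2 2.1.1 in each library without IgG, in paired-end and single-end mode, and merged with the higher score kept. The deposited score is the authors' whole-number value, at least 20, which rises with depth. Depth is unknown, so only ranks within a list were used, and the authors' test on read counts was not repeated. By its peak names, untreated replicate 2 combines resequenced runs.

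Starts came from GENCODE 44. The members and lists were chosen with earlier results of these data known. Regions were the 20000 highest peaks per library, merged within 100 bp, held with 1 bp of overlap. Log2 ranks were fitted with limma 3.58.1 (trend, all 6 libraries, no covariate) for genes with a promoter peak in at least 2 libraries, and tested on simulated data. Clusters and positions were compared by exact sign-flip tests over libraries. Values are given in every library for the 3 best genes and the worst of each cluster and for the 3 largest differences per contrast among genes with a peak in all libraries compared. Named regions were the 3 best per cluster and those held only in 1 group. Alternatives changed the start, distance, score, number of peaks, averaging, windows, replicate block and library set. Some items are not reported here and are left out of the plots, while counts and means include them.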

Additional observations from a re-analysis of the deposited data

Results flagged for a closer look

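HOXA4, a central gene, stood out because its ranks lay on opposite sides of the untreated ones under the 2 treatments. Its promoter peak ranked at 47866 in untreated replicate 2 and was not listed in replicate 1, ranked at 42203 and 42501 with cobimetinib, and was not listed in either TNFα library. Both cobimetinib libraries were nearer the top than both untreated libraries and both TNFα libraries farther, with the list length plus 1 as the rank where no peak was listed. Those ranks were 86953 in untreated replicate 1 and 115573 and 92712 with TNFα, so the order of these 3 libraries is that of their list lengths and gives no direction under TNFα. The opposite sides were not tested as a difference of their own. The difference between TNFα and cobimetinib was 1.29 on the log2 scale (SE 0.72, limma adjusted p = 0.983) and did not pass the test. Groups of 2 libraries are too small for a search for outlying samples.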

How the results depend on the processing

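Of 254 recomputed values for 26 results, 155 were counts or shares, of which 104 stayed within 1.5 times the main count (shares within 1 SD) and 51 did not. Of 99 differences with a test, 43 kept direction and side of the threshold, 44 no longer passed, 6 newly passed and 6 reversed. These counts include the settings with a library left out. There no pair can pass, so each pair that had passed counts as no longer passing unless reversed. The count of HOX genes with a promoter peak in all 6 libraries, 17, became 9 with canonical starts, 8 with a score of 50 or more and 7 with the 20000 highest peaks, and 17 to 21 with each library left out.

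With 5 libraries the exact cluster and position tests cannot pass the threshold, so those settings show direction only. Leaving out each library gave, on the log2 scale, 0.84 to 0.97 for HOXA minus HOXB, 0.27 to 0.50 for HOXA minus HOXC, -1.42 to -1.29 for HOXA minus HOXD, -0.61 to -0.34 for HOXB minus HOXC, -2.36 to -2.24 for HOXB minus HOXD, -1.90 to -1.67 for HOXC minus HOXD, 0.37 to 0.50 for anterior minus central, -0.02 to 0.08 for anterior minus posterior (-0.02 without cobimetinib replicate 1 and -0.01 without TNFα replicate 1) and -0.47 to -0.38 for central minus posterior. The median over genes reversed HOXA minus HOXC to -0.62 and anterior minus posterior to -0.85, and ended the calls of HOXA minus HOXB (0.71), HOXA minus HOXD (-1.96), HOXB minus HOXD (-2.66), HOXC minus HOXD (-1.34), anterior minus central (0.43) and central minus posterior (-1.28). Canonical starts reversed HOXA minus HOXC to -0.43 and central minus posterior to 0.24, ended the call of HOXC minus HOXD (-0.60) and brought HOXB minus HOXC (-1.11) and anterior minus posterior (0.83) past the threshold. Ranking genes among protein-coding genes brought HOXA minus HOXC (0.41) and anterior minus posterior (0.15) past it, as did a 500 bp distance for HOXA minus HOXC (0.43) and 2 kb for HOXB minus HOXC (-0.63), while 2 kb ended that of anterior minus central (0.36). The causes were not tested.

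Cobimetinib-only regions against untreated, 2, became 1 with 10000 peaks, 4 with all peaks and 2 to 8 with a library left out, and untreated-only ones, 0, became 1 with 40000 or all peaks and 0 to 4. TNFα-only regions against untreated, 0, became 3 with all peaks and 0 to 5, and untreated-only ones, 0, became 1 with 40000 peaks and 1 to 5. TNFα-only regions against cobimetinib, 0, became 1 with 10000 or all peaks and 1 to 3, and cobimetinib-only ones, 3, became 0 with 10000 peaks and 4 to 7. The covered share of the windows with the 20000 highest peaks was 4.63% for HOXA, 4.35% for HOXB, 2.66% for HOXC and 0.602% for HOXD, and with a score of 50 or more 5.23% for HOXA, 5.05% for HOXB, 2.95% for HOXC and 0.756% for HOXD.

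HOX genes called by limma went from 0 to 4 against untreated for each treatment without untreated replicate 1, giving ranges of 0 to 4. Over all genes, cobimetinib against untreated went from 0 to 2 with the replicate block, 3 within 2 kb, 1 with canonical starts (a setting added after the data were seen) and 0 to 3251 with a library left out (3251 without untreated replicate 1, 8 without replicate 2). TNFα against untreated went to 0 to 2303, the latter without untreated replicate 1 and 2 without replicate 2. TNFα against cobimetinib went to 1 with the block, 3 within 2 kb, 1 with canonical starts and 69 with the 4 libraries alone, and stayed at 0 with each of them left out. Deviations of same-numbered libraries from their group means correlated at -0.02 to 0.10. These values gave no sign of pairing by number, but 2 libraries per group cannot exclude it. With the replicate block 0 HOX genes were called in each contrast. Read depth is unknown from these lists.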
